A study of Mus musculus with 5 samples.

Results

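The pluripotency factor genes described here are Pou5f1, Sox2, Nanog, Klf2, Klf4, Klf5, Esrrb, Tfcp2l1, Sall4 and Lin28a, and their peaks were all rows of the ChIP-seq peak lists that carried one of these 10 names. That gave 73 of 89451 peaks. The lists came from CP cells, the cardiac progenitor stage of a differentiation of 46C mouse embryonic stem cells. They covered ZHX1 ChIP in 46C-Ctrl control cells (the control ZHX1 list) and hnRNPA1 ChIP in the same cells (the control hnRNPA1 list). The last list was hnRNPA1 ChIP in Zhx1-KO cells, in which CRISPR guides had cut near the transcription start and stop sites of Zhx1. All cells were therefore of one line and at one stage, formaldehyde-fixed and sonicated, with no drug or age in the labels, and whether the knockout was a single clone was not given there. Each group had 1 library, so no difference between lists could be tested, the read depth is unknown, and the intervals below are 95% intervals of counting error only. Peak lists hold no expression, so the CP label could not be checked against marker genes.

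Pluripotent stem cells keep their state through a network of transcription factors. Pou5f1 (Oct4), Sox2 and Nanog form its core, while the Krüppel-like factors Klf2, Klf4 and Klf5, the orphan nuclear receptor Esrrb and the grainyhead-like factor Tfcp2l1 are hallmarks of the naive state. Sall4 is a zinc finger factor and Lin28a an RNA-binding protein that blocks maturation of let-7 microRNAs. The network is shut down as cells leave pluripotency for mesoderm and heart. A peak in these lists is a stretch of genome where DNA recovered with an antibody piled up, and its name is, for 95.9% to 96.3% of the named peaks of a list, that of the gene with the nearest transcription start site (TSS). Distances given as nearest run from the edge of a peak to a TSS, and distances of a named peak from a gene or TSS otherwise from its centre. Distances between peaks of different lists run from edge to edge, and gaps within a list from centre to centre.

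The control ZHX1 list named a member 18 times, the control hnRNPA1 list 7 times and the Zhx1-KO hnRNPA1 list 48 times. Klf2, Klf4, Klf5, Esrrb, Tfcp2l1 and Sall4 gave their names to all 73 peaks, while Pou5f1, Sox2, Nanog and Lin28a named none in any list. Named at least once were 6 of the 10 genes in the ZHX1 list, where 40.5% of all 21911 protein-coding genes were named. For control hnRNPA1 the number was 3 of 10 (background 31.2%) and for Zhx1-KO hnRNPA1 6 of 10 (background 57.8%). A promoter peak, one within 2 kb of an annotated TSS, was present at 1 gene in the ZHX1 list (Esrrb, background 12.1%), at none in the control hnRNPA1 list (background 6.78%) and at 3 in the Zhx1-KO hnRNPA1 list (Klf2, Klf4 and Klf5, background 21%). With 10 genes these counts lie within a few genes of the background, and nothing particular to the pluripotency factors is read from them.

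**Figure D1:**
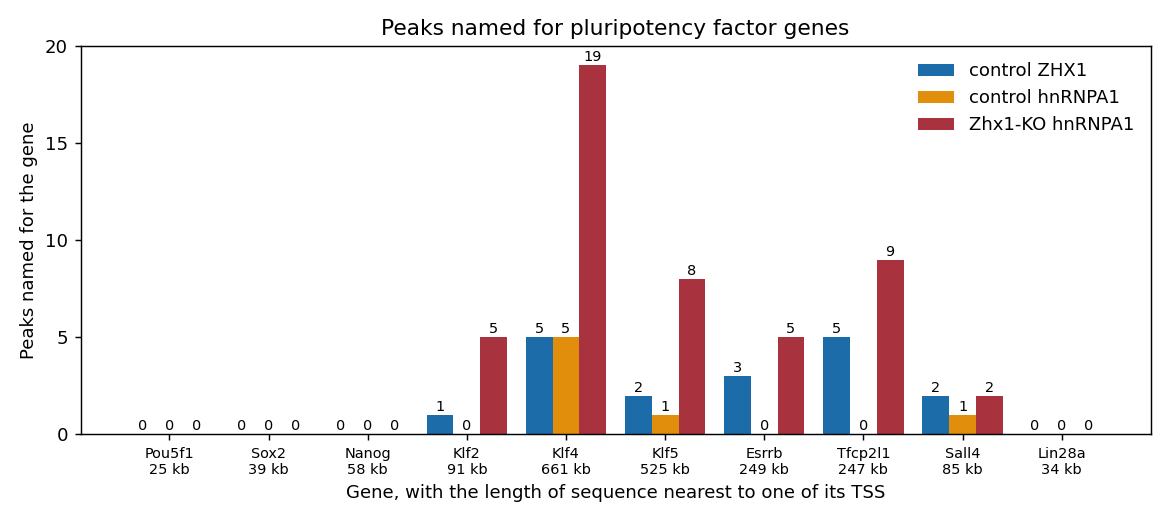
Number of peaks named for each gene (vertical axis) in the 3 lists (bar colours), with the length of sequence nearest to a TSS of the gene under its symbol. Klf4 has 5, 5 and 19 peaks, in the ZHX1 list as many as Tfcp2l1, and has the longest such sequence, and the 4 genes without a bar have the shortest.

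The positions at which lists met, and the peaks at the 5′ ends of Klf2 and Klf4 in Zhx1-KO cells, are shown by their sequence, read from the plus strand of GRCm38. Among named peaks, lists shared sequence only upstream of Sall4 (control ZHX1 with control hnRNPA1, chr2:168806753-168807010) and upstream of Klf5 (control hnRNPA1 with Zhx1-KO hnRNPA1, chr14:99296230-99296340). Capitals in these mark the matches to TAGGG, which is the core of hnRNPA1 sites in RNA written as DNA, and to CCAAT, the NF-Y site, each searched on both strands, which therefore also show as CCCTA and ATTGG. Below them stand the middle 300 bases of the Zhx1-KO hnRNPA1 peaks inside Klf2 (chr8:72319683-72319982) and Klf4 (chr4:55530388-55530687), where neither motif occurred and capitals mark CpG.
Sall4 shared: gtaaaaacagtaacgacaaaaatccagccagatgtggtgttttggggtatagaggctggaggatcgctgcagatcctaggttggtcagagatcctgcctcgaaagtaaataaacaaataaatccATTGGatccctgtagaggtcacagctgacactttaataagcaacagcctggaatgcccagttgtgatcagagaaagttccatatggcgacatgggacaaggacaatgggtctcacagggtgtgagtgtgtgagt
Klf5 shared: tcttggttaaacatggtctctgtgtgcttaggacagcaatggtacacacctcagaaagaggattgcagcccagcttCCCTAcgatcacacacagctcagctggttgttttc
Klf2 middle: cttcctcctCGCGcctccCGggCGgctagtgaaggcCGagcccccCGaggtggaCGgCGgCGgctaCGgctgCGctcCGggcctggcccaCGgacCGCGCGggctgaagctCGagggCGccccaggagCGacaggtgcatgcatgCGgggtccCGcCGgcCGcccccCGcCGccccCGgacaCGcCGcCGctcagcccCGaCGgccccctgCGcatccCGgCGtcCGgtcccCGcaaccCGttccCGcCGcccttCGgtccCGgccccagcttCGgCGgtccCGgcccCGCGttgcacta
Klf4 middle: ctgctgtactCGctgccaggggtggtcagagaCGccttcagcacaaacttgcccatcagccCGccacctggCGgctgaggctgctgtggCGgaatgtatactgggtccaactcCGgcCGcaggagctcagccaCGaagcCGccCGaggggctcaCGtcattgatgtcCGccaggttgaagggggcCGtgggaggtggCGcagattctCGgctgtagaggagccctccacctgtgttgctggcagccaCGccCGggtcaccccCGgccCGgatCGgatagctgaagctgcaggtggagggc
The Sall4 sequence held 1 CCAAT and 4 CpG at 46.1% GC, and the Klf5 sequence held 1 TAGGG and 1 CpG at 48.6% GC. The Klf2 sequence held 46 CpG at 79.3% GC and the Klf4 sequence 20 CpG at 66.3% GC. Outside these middle bases the motifs did occur. The full 667 bp of the Klf2 peak held 1 TAGGG and 1 CCAAT, and the full 596 bp of the Klf4 peak held 2 TAGGG and 0 CCAAT. The middle 300 bases of the Zhx1-KO hnRNPA1 peak at the Klf5 TSS are not printed because they hold UTR, and they had 39 CpG at 75.7% GC and neither motif.

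Pou5f1, the POU homeodomain factor of the core, had no peak of any name in the gene or within 2 kb of it (chr17:35506018-35510772, plus strand). The nearest control ZHX1 peak lay 42.2 kb from a TSS (named Cdsn), the nearest control hnRNPA1 peak 30.6 kb away (Cdsn) and the nearest Zhx1-KO hnRNPA1 peak 26.6 kb away (H2-Q10), the last in repeat sequence with a median copy number of 82 in the genome. Within 100 kb of the gene there were 4, 3 and 9 peaks in the 3 lists, all named for other genes, among them the H2-Q genes of the neighbouring major histocompatibility region. Of the 32-base words in Pou5f1 and 2 kb around it, 12.4% occurred more than once in the genome. Peaks with a median copy number of 2 or more made up 25.3%, 24.5% and 31.4% of the 3 lists. A link between such sequence and the lack of peaks at Pou5f1 was not tested.

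Sox2, the HMG-box partner of Pou5f1, also had no peak in the gene or within 2 kb (chr3:34650405-34652461, plus strand). Of the words in Sox2 and 2 kb around it, 0.664% were multi-copy. A link between this share and the lack of peaks was not tested. The Zhx1-KO hnRNPA1 list came closest, with a peak named Mir1897 11.8 kb from the TSS. Within 130 kb of Sox2, the control hnRNPA1 peaks lay on the other side of the gene from those in Zhx1-KO cells. ZHX1 peaks stood 76.6 kb (Sox2ot) and 50.8 kb (Mir1897) upstream and 130 kb downstream (Gm38509), and Zhx1-KO hnRNPA1 peaks 58.8 kb (Sox2ot) and 11.98 kb (Mir1897) upstream. The 3 control hnRNPA1 peaks of this window were downstream, at 35.9, 50.98 and 107.6 kb. A cluster of distal enhancers that drives Sox2 in stem cells is known to lie downstream of the gene. Its limits are not in the files, and overlap of the control hnRNPA1 peak at chr3:34757857-34758157 with it was not tested.

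Nanog, the homeodomain factor that completes the core, had the emptiest surroundings of the 4 (chr6:122707489-122714633, plus strand). Within 100 kb stood 1 control ZHX1 peak, 1 control hnRNPA1 peak and 3 Zhx1-KO hnRNPA1 peaks. The nearest were a ZHX1 peak named Slc2a3 at 36.3 kb, a control hnRNPA1 peak named Foxj2 at 83.1 kb and a Zhx1-KO hnRNPA1 peak named Dppa3 at 71.9 kb from a TSS. The Dppa3 peak (chr6:122635331-122635554) and a further Zhx1-KO peak named Gdf3 carried names of genes that sit beside Nanog and are themselves known from pluripotent cells. The Gdf3 peak consisted of sequence with a median copy number of 26355 in the genome. Multi-copy words made up 16.2% of Nanog and 2 kb around it, the highest share of the 10 genes.

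Lin28a had its nearest peaks at 61.7 kb (ZHX1), 45.7 kb (control hnRNPA1) and 41.5 kb (Zhx1-KO hnRNPA1), all 3 named Hmgn2, and none in the gene (chr4:134003330-134018841, minus strand). Upstream of it, both hnRNPA1 lists had a peak named Ubxn11 at the same place, chr4:134098696-134099087 in control cells and chr4:134098806-134099044 in Zhx1-KO cells. The latter lay wholly inside the former, 80.1 kb from the annotated start of Lin28a, and had a median copy number of 1.

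**Figure D2:**
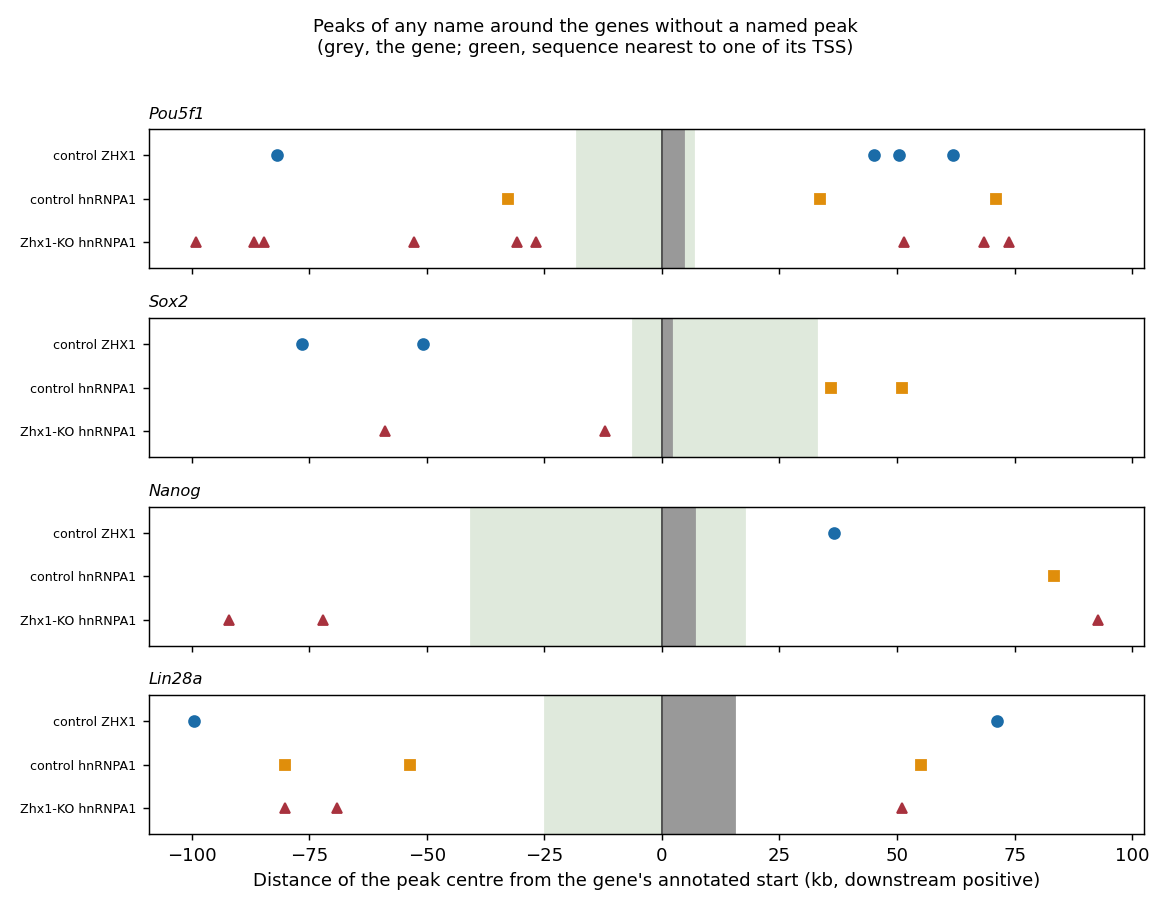
Peaks of any name within 100 kb of the 4 genes without a named peak, by distance of the peak centre from the annotated gene start in kb (horizontal axis, downstream positive), one row per list. No point falls in a gene (grey) or in the sequence nearest to one of its TSS (green), and around Sox2 the control hnRNPA1 peaks are downstream while the other 2 lists have theirs upstream within this window.

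The 4 genes without a named peak had the shortest sequence nearest to their TSS. Because names mostly follow the nearest TSS, the sequence nearest to one of the TSS of a gene, here called its stretch, is where nearly all peaks of its name are found. The stretch measured 24.8 kb for Pou5f1, 33.8 kb for Lin28a, 39.1 kb for Sox2 and 58.2 kb for Nanog, 155.8 kb in all. The other 6 genes had 85.2 kb (Sall4), 90.7 kb (Klf2), 247.5 kb (Tfcp2l1), 248.7 kb (Esrrb), 525.0 kb (Klf5) and 661.3 kb (Klf4), and the median over 20442 protein-coding genes was 45.0 kb. At the mean density of each list, the 4 short stretches together would hold 5.27 peaks over the 3 lists, where none was named for these genes. No interval was computed for this value, and whether stretch length accounts for the lack of named peaks was not tested. Of 12246 protein-coding genes with a stretch under 60 kb, 38.0% were named in no list, against 8.94% of 6800 genes with 60 to 300 kb and 4.08% of 1396 genes with more. The class under 60 kb also takes in genes with shorter stretches than those of the 4.

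Set against the length of the stretches, 2.01 Mb in all, the peaks of the 10 genes did not differ in density from those of each list beyond counting error. This is a statement about all 10 genes, and the values without Klf4 are given below as a description. The ratio of their density to that of the whole list was 1.02 for control ZHX1 (0.603 to 1.61, exact Poisson, 18 peaks where the list density gives 17.7). It was 0.628 for control hnRNPA1 (0.252 to 1.29, 7 where 11.2) and 1.22 for Zhx1-KO hnRNPA1 (0.902 to 1.62, 48 where 39.2). Each interval contained 1. Without Klf4, left out after seeing the data because its stretch is the longest, the ratio for control hnRNPA1 was 0.267 (0.0323 to 0.964, 2 peaks where the list density gives 7.49) and its interval lay below 1. The ratios for control ZHX1 and Zhx1-KO hnRNPA1 were then 1.09 (0.583 to 1.87) and 1.10 (0.737 to 1.58). Klf4 held 5 of the 7 control hnRNPA1 peaks, so leaving it out lowers that ratio by the choice itself. No other gene was left out, and no conclusion is drawn from the ratio without Klf4. The lists differed in length, with 23244, 14662 and 51545 peaks, and the member peaks made up 0.774 per 1000 peaks of the ZHX1 list (Wilson 0.490 to 1.22), 0.477 of control hnRNPA1 (0.231 to 0.985) and 0.931 of Zhx1-KO hnRNPA1 (0.702 to 1.23).

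Between the hnRNPA1 lists, 48 of 55 member peaks came from Zhx1-KO cells, 87.3% (Wilson 76.0% to 93.7%), and over the whole lists the share was 77.9%, since the Zhx1-KO list was 3.52 times as long. The interval for all members thus contained the share of the whole lists. Klf4 held 5 of the 7 control hnRNPA1 peaks. Without Klf4, left out after seeing the data, the numbers were 2 in control and 29 in Zhx1-KO cells, 93.5% (79.3% to 98.2%). That interval lay above the share of the whole lists, but leaving out this gene raises the Zhx1-KO share by the choice itself. The intervals also take the peaks of a few genes in 1 library per group as independent, so nothing is read from it. A peak gained through a longer list, whatever set its length, and one gained through binding cannot be told apart with 1 library per group. When every list was reduced to the 14662 widest peaks, the members named 10, 7 and 14 peaks, and the 3 promoter peaks of Zhx1-KO cells were kept.

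**Figure D3:**
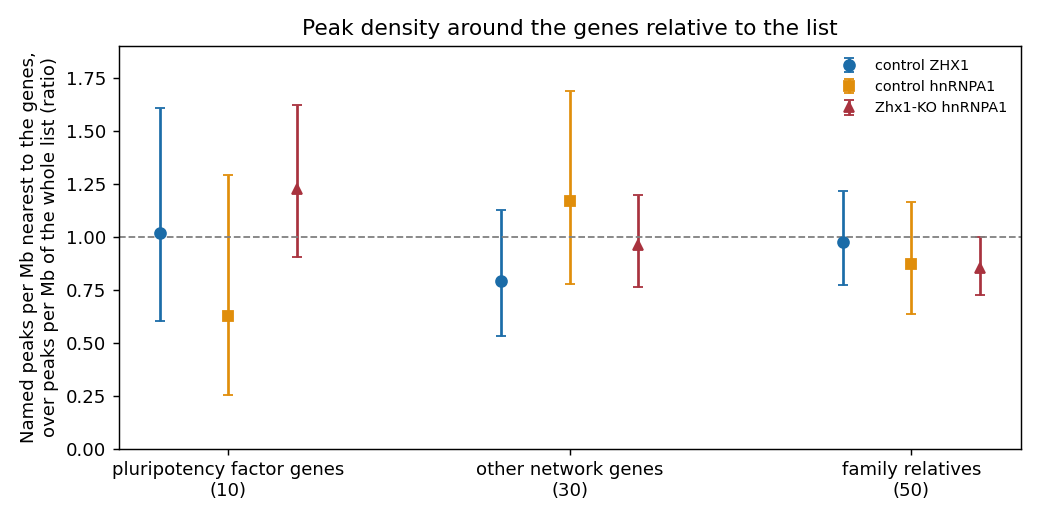
Density of named peaks in the stretches of 3 gene groups divided by the density of the whole list (vertical axis, ratio), for the 3 lists (colours and symbols), with exact Poisson 95% intervals as bars and the number of genes in brackets. The pluripotency factor genes stand at 1.02, 0.628 and 1.22, and their intervals cross the dashed line at 1.

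The Klf genes carried the 3 peaks whose edges lay closest to a TSS, all from Zhx1-KO cells. Neither control list had a peak at the promoters of Klf2, Klf4 and Klf5. Klf2 (chr8:72319033-72321656, plus strand) had a Zhx1-KO hnRNPA1 peak at chr8:72319499-72320165, 667 bp wide, with its centre in coding sequence 0.799 kb after the TSS. The nearest control hnRNPA1 peak to Klf2 lay 75.5 kb away and was named Ap1m1, and it overlapped a control ZHX1 peak of that name by 186 bp. The only ZHX1 peak named for Klf2 stood 17.5 kb downstream of the TSS (chr8:72336375-72336711), 3.02 kb from one of the Zhx1-KO hnRNPA1 peaks. The other 4 Zhx1-KO peaks lay 22.7 kb upstream and 20.8, 37.4 and 47.3 kb downstream, the farther pair in introns of the neighbouring gene Eps15l1.

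Klf4 (chr4:55527143-55532466, minus strand) named 29 of the 73 peaks, 39.7%, and its stretch was 32.8% of the total. Its Zhx1-KO hnRNPA1 promoter peak, chr4:55530240-55530835, was 596 bp wide, with its centre in coding sequence 1.23 kb after the nearest TSS. The nearest control hnRNPA1 peak was 26.5 kb from a TSS, beyond the 3′ end, and the nearest ZHX1 peak 5.90 kb, just beyond that end at chr4:55525526-55525875. This ZHX1 peak stood between 2 Zhx1-KO hnRNPA1 peaks, 4.37 kb from the promoter peak and 2.65 kb from the next one, which shows in the plot of the gene ends. Most of the Klf4 stretch lies upstream of the gene, and 14 of the 19 Zhx1-KO peaks, 4 of 5 control hnRNPA1 peaks and 4 of 5 ZHX1 peaks lay there. The Zhx1-KO peaks spanned 643 kb with a median gap of 32.3 kb, the control hnRNPA1 peaks 596 kb with a median gap of 117 kb and the ZHX1 peaks 496 kb with a median gap of 67.1 kb. The peak farthest from the gene, in Zhx1-KO cells, was centred 599 kb upstream. No Klf4 peak overlapped one of another list, the closest being a control and a Zhx1-KO hnRNPA1 peak 1.23 kb apart, 207 and 209 kb upstream.

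Klf5 (chr14:99298691-99315036, plus strand) was the only member with overlapping hnRNPA1 peaks in control and Zhx1-KO cells. The control peak (chr14:99296118-99296340) and the Zhx1-KO peak (chr14:99296230-99296506) shared 111 bp, 49.8% of the control peak, at 2.46 and 2.32 kb upstream of the TSS. Both peaks had a median copy number of 1. Zhx1-KO cells had a further peak over the TSS itself, chr14:99298667-99299128, 462 bp wide and 2.33 kb from the control peak. The other 6 Zhx1-KO peaks stretched from 25.4 to 197 kb downstream. Both ZHX1 peaks lay away from the promoter, 11.7 kb upstream in sequence with a median copy number of 5, and 394 kb downstream in single-copy sequence. None of the 8 Zhx1-KO hnRNPA1 peaks overlapped them.

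**Figure D4:**
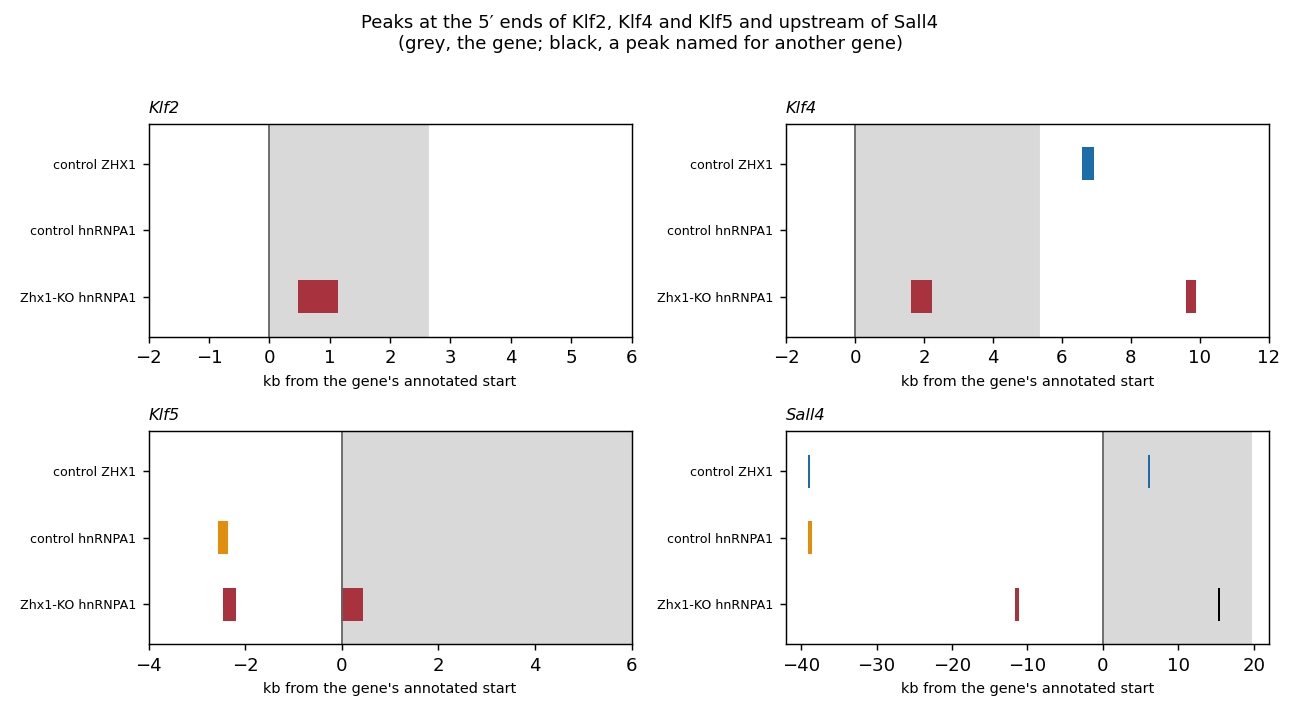
Peaks as bars drawn to their width around the 5′ ends of Klf2, Klf4 and Klf5 and around Sall4 (horizontal axis, kb from the annotated gene start; rows, lists; grey, the gene; black bar, the peak named for Atp9a). Zhx1-KO hnRNPA1 peaks of 667, 596 and 462 bp stand in the 5′ part of the 3 Klf genes, where the control lists have none, and control ZHX1 and control hnRNPA1 peaks coincide about 39 kb upstream of Sall4.

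The 3 promoter peaks of Klf2, Klf4 and Klf5 held the most CpG of the 48 Zhx1-KO member peaks. They held 94, 46 and 64 CpG at 77.4%, 65.6% and 74.7% GC, and the other 45 Zhx1-KO peaks held 0 to 9 CpG at 38.3% to 54.5% GC. Widths of 462 bp or more occurred in 7.08% of all Zhx1-KO hnRNPA1 peaks and in 9.08% of the 5221 at promoters of protein-coding genes. At least 46 CpG occurred in 0.735% of all peaks of that list and in 6.11% of its promoter peaks, whose median was 6. A GC share of at least 65.6% occurred in 3.09% of all peaks of the list and in 22.1% of its promoter peaks. By number of CpG, which was not corrected for width, the 3 peaks belonged to the CpG-rich end of the promoter peaks. The median width of the promoter peaks was 278 bp, and 6.67% of the other Zhx1-KO member peaks were as wide as the 3. The part of base composition in these peaks was not tested.

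Esrrb and Tfcp2l1 had no control hnRNPA1 peak. At Esrrb (chr12:86361117-86521628, plus strand) all 3 ZHX1 peaks lay in introns of the gene, at 19.7, 64.2 and 144 kb from its annotated start, and the last (chr12:86505440-86505762) began 1.03 kb from an internal TSS and so counted as a promoter peak. Zhx1-KO hnRNPA1 had 1 of its 5 Esrrb peaks inside the gene, at 136 kb and 7.92 kb from the last ZHX1 peak. The other 4 flanked the gene on both sides, 34.6 and 14.9 kb upstream of the start and 164 and 179 kb downstream of it. The nearest control hnRNPA1 peak was 127 kb from a TSS of Esrrb and named Vash1.

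At Tfcp2l1 (chr1:118627945-118685168, plus strand) ZHX1 had 5 peaks, 40.2, 27.3 and 3.56 kb upstream and 10.8 and 98.1 kb downstream of the TSS. Zhx1-KO hnRNPA1 had 9, from 61.1 kb upstream to 163 kb downstream, 4 of them in introns of the gene. A pair of these in the gene, 4.56 and 5.097 kb after the TSS, were the closest of all peaks of one list, 0.534 kb between centres. Peaks of both lists came near each other without overlap at 3 places, with gaps of 0.920, 1.01 and 4.07 kb. The first of these lies in repeated sequence within introns of the neighbouring gene Clasp1, where the ZHX1 peak (chr1:118587591-118587818) had a median copy number of 1739 and the Zhx1-KO peak 401. The nearest control hnRNPA1 peak stood 146 kb from Tfcp2l1 and was named 2900060B14Rik.

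Sall4 (chr2:168748332-168767943, minus strand) was the only member at which ZHX1 and hnRNPA1 peaks coincided in control cells. The ZHX1 peak (chr2:168806753-168807052) and the hnRNPA1 peak (chr2:168806475-168807010) shared 258 bp, 86.0% of the former and 48.1% of the latter, about 39.0 and 38.8 kb upstream of the nearest TSS. The shared sequence is the one printed above, where repeats are not marked. Both peaks had a median copy number of 1. Bases masked as repeats in the genome sequence made up 37.7% of the ZHX1 peak and 56.7% of the hnRNPA1 peak. In Zhx1-KO cells no hnRNPA1 peak lay there, the nearest being 26.9 kb away. The Sall4 peaks of that list stood 11.4 and 67.7 kb upstream, with 75.8% and 89.8% of their bases masked as repeats. Absence of a peak at one place in 1 library does not show absence of binding. An intron of Sall4 held a ZHX1 peak 3.38 kb after a TSS, and its coding sequence a Zhx1-KO hnRNPA1 peak (chr2:168752473-168752742) that the list names for the neighbour Atp9a.

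**Figure D5:**
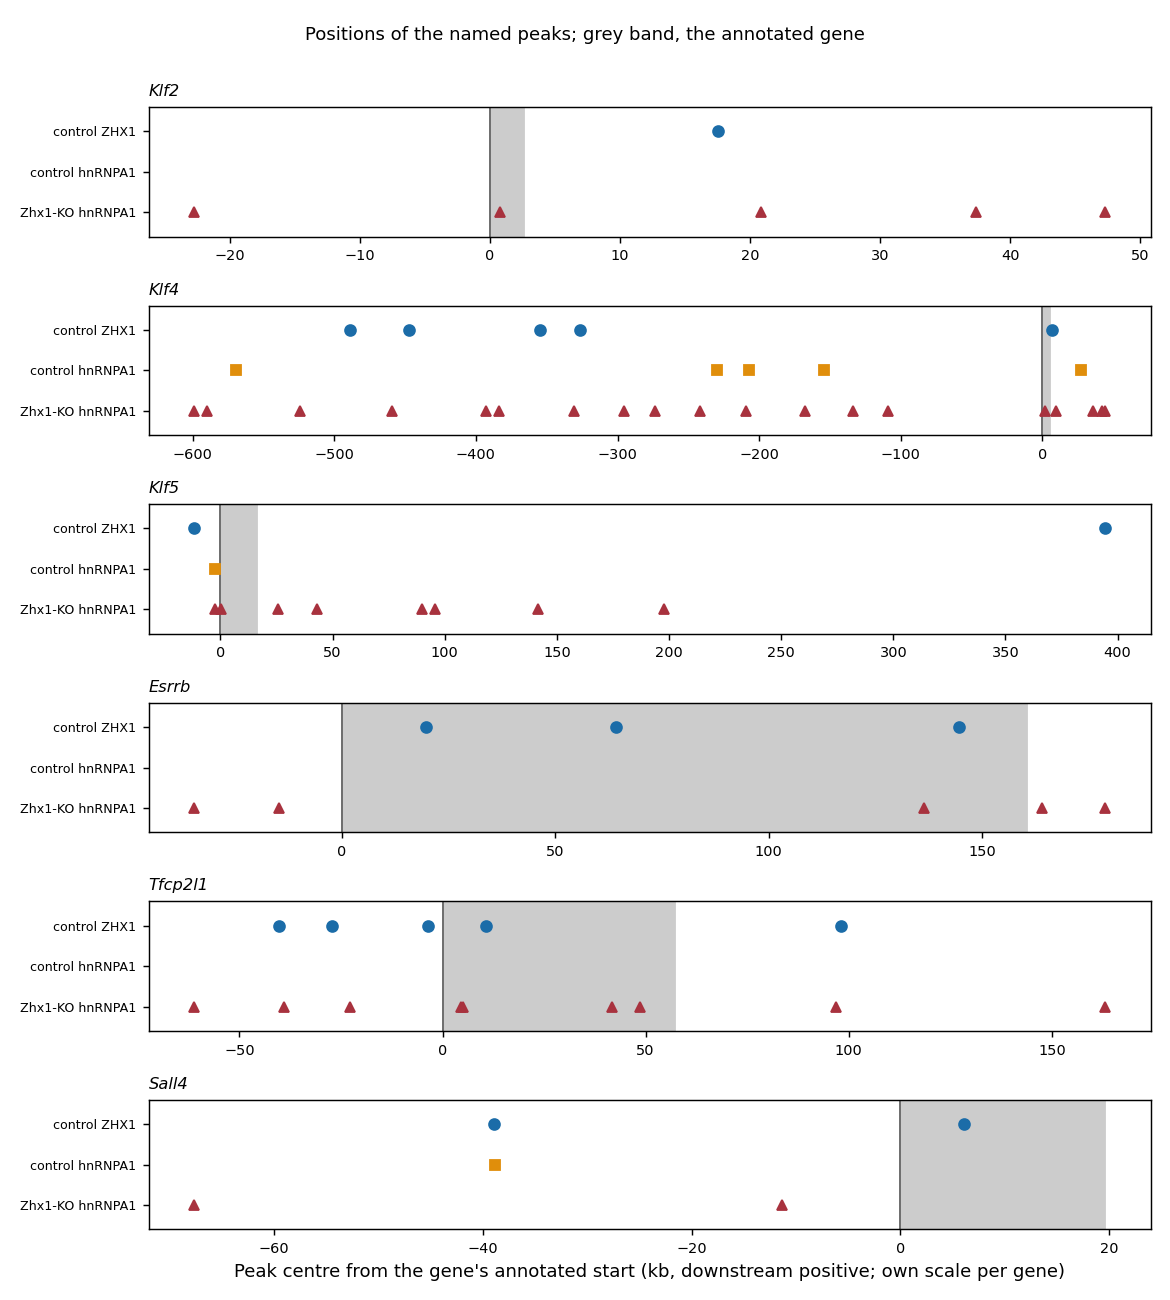
Centres of all 73 named peaks relative to the annotated start of their gene (horizontal axis, kb, downstream positive, each gene on its own scale; rows, lists; grey, the gene). The Klf4 peaks trail up to 599 kb upstream, the 3 ZHX1 peaks of Esrrb lie within the gene, and Sall4 shows the ZHX1 and control hnRNPA1 peaks at the same place.

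Seen over all members, overlap between lists was rare. Of 7 control hnRNPA1 peaks 1 overlapped a ZHX1 peak (background 4.12% of the list) and 1 overlapped a Zhx1-KO hnRNPA1 peak (background 4.41%). Of 18 ZHX1 peaks 1 overlapped a control hnRNPA1 peak (background 2.6%) and 0 overlapped a Zhx1-KO hnRNPA1 peak (background 4.42%). Counts of 0 and 1 at these sizes do not set the members apart from the lists. With peaks of any name within 100 kb of the 10 genes the overlaps numbered 4. Those at Sall4 and at Ap1m1 beside Klf2 joined the control ZHX1 and control hnRNPA1 lists. Those at Klf5 and at Ubxn11 beside Lin28a joined the hnRNPA1 lists. No share of the peaks in these windows is given to set beside the shares over the lists above, so nothing is read from this number.

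Most member peaks were distal and in single-copy sequence. Placed by the middle of the peak, 51 of the 73 were intergenic, 18 lay in introns, 2 in coding sequence, 1 in a UTR and 1 in a non-coding exon. The gene they were named for was overlapped by 13 peaks, 5 from ZHX1, 0 from control hnRNPA1 and 8 from Zhx1-KO hnRNPA1. The median distance to a TSS of the gene was 23.5 kb for ZHX1, 154 kb for control hnRNPA1, of which 5 of 7 were Klf4 peaks, and 45.4 kb for Zhx1-KO hnRNPA1. Shares by position and median distances over the whole lists are not given here, so these values are not read as particular to the members. Multi-copy sequence, with a median 32-base copy number of 2 or more, made up 2 of 18, 0 of 7 and 3 of 48 peaks, where the lists had 25.3%, 24.5% and 31.4%. The highest copy number, 12797, belonged to a Zhx1-KO peak 459 kb upstream of Klf4.

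The sequence under the member peaks was close to that of their lists in base composition and varied in motifs. Median GC was 44.3%, 47.5% and 48.6% for ZHX1, control hnRNPA1 and Zhx1-KO hnRNPA1 member peaks, and 46.3%, 46.7% and 48.3% over the lists. TAGGG occurred in 6 of 18, 4 of 7 and 23 of 48 peaks (33.3%, 57.1% and 47.9%), where the lists had 34.4%, 35.0% and 35.3%. CCAAT occurred in 11 of 18 ZHX1 peaks (61.1%, list 36.4%), 3 of 7 control hnRNPA1 peaks (42.9%, list 36.3%) and 15 of 48 Zhx1-KO hnRNPA1 peaks (31.3%, list 38.2%). Peak widths were not matched between members and lists, and a match is a description of the letters and not of a bound site.

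Among 30 other genes of the pluripotency network, 14 were named in the ZHX1 list, 16 in the control hnRNPA1 list and 22 in the Zhx1-KO hnRNPA1 list, with density ratios of 0.789 (0.533 to 1.13), 1.17 (0.776 to 1.69) and 0.961 (0.763 to 1.19). ZHX1 had promoter peaks at 4, namely Zfp42, a zinc finger marker of naive cells (Rex1), the homeobox gene Gbx2, the Polycomb cofactor Jarid2 and Socs3, the feedback inhibitor of Stat3. Control hnRNPA1 had none, as at the 10 members. Zhx1-KO hnRNPA1 had promoter peaks at 6, namely the T-box factor Tbx3, Gbx2, Stat3, the Nodal inhibitor Lefty1, the cytokine receptor subunit Il6st and Socs3. The Lefty1 peak lay in sequence with a median copy number of 2. Of 50 relatives of the members by family (other Klf, Sox, Pou, Sall and Lin28 genes), 30, 22 and 36 were named and 6, 2 and 11 had a promoter peak, with ratios of 0.976 (0.774 to 1.21), 0.870 (0.635 to 1.16) and 0.853 (0.724 to 0.998). The last of these intervals ended just below 1, was among several read without adjustment and covered counting error only, so nothing is read from it. Lin28b was counted in both gene groups. The shares over all protein-coding genes were those given above, 40.5%, 31.2% and 57.8% named and 12.1%, 6.78% and 21% with a promoter peak.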

How the data were processed

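The 5 samples (3 ChIP libraries and 2 inputs, the inputs without a file used here) were grouped by their titles. The authors trimmed reads with cutadapt 1.18, aligned them with Bowtie2 2.3.5.1 to GRCm38 and removed reads without a unique position and duplicates. BWA 0.7.12-r1039 and deepTools 3.3.0 also appear in the submitters' processing notes. The sources used here do not name the peak caller, its threshold or whether inputs were used. The deposited lists hold positions and a gene name per peak, with no score, so width served as rank.

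Positions are 1-based. For the stretches and the check of peak names, TSS came from RefSeq (GRCm38), for protein-coding genes and all names used in the lists. Distances to a TSS and promoter peaks used the transcript starts of GENCODE M21, which also gave the gene starts and gene parts. A stretch is the sequence nearest to a TSS of the gene. Overlap meant 1 bp or more. Copy number is the median count of the 32-base words of a peak in the primary assembly. The members, gene lists and alternatives were chosen with earlier results of these data known. Named genes were all members, network genes with a promoter peak and genes naming a peak in or within 2 kb of a member. Other neighbours were named after their values were seen. Calculations, tested on simulated data, ran in Python 3.11.15 with scipy 1.17.1 and pandas 2.3.3 (intervals and tables), numba 0.67.0 with numpy 2.4.6 (word counts) and matplotlib 3.10.9 (plots).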

Additional observations from a re-analysis of the deposited data

How the results depend on the processing

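With 1 library per group, no replicate could be left out. No paired analysis was possible because each group had 1 library and no result comes from a test. With peaks at or above the median width of their list, the members named 10 ZHX1, 4 control hnRNPA1 and 25 Zhx1-KO hnRNPA1 peaks, and with lists of equal length 10 ZHX1 and 14 Zhx1-KO peaks. Taken by position in a gene and 2 kb around it, the numbers were 6, 0 and 9, and 0 members had a control hnRNPA1 peak. Within 50 kb of a TSS there were 3 control hnRNPA1 and 26 Zhx1-KO peaks. A promoter of 1 kb left 0 members with a ZHX1 peak, and one of 5 kb gave 3, 1 and 5. Overlap of 50% of the shorter peak left 0 between the hnRNPA1 lists. Without Klf4, chosen after seeing the data, the density ratio of control hnRNPA1 was 0.267, 2 peaks, and its interval no longer contained 1. The other 34 values under alternatives stayed within 1.5 times the reported one or, for ratios, within its interval. They include the density ratios of ZHX1 and Zhx1-KO hnRNPA1 without Klf4 (1.09 and 1.10) and all 3 with TSS of protein-coding genes only (0.972, 0.739 and 1.09).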
